A study of Mus musculus with 6 samples.

Results

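The monoamine and acetylcholine receptor genes are those for serotonin (Htr), dopamine (Drd), muscarinic acetylcholine (Chrm), nicotinic acetylcholine (Chrn) and adrenergic (Adr) receptors. They were chosen by gene name, and 49 of the 55367 rows of the count table matched. Of these, 33 had a mean of 10 or more counts over the 6 libraries. RNA-seq was performed on cortical neurons of C57BL/6J mice, 3 WT and 3 Fmr1-KO, taken at postnatal day 1 and kept 2 days in vitro. Fmr1 encodes FMRP, the RNA-binding protein lost in fragile X syndrome. Both genotypes shared the same preparation: cortex was dissociated with papain and plated on laminin and poly-L-lysine in Neurobasal/B27 Plus, and the study's methods describe removal of myelin and of astrocytes carrying ACSA-2. The study calls the samples independently derived, but the labels name neither litter nor culture, so P values measure only the spread between these samples, which may be technical. The comparison asks how the RNA of these receptors differed in Fmr1-KO relative to WT cultures.

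Serotonin, dopamine, noradrenaline and acetylcholine reach the cortex mainly through axons from the brainstem, midbrain and basal forebrain, and their receptors sit on cortical and other target cells. Most of these receptors couple to G proteins: the Gs class raises cyclic AMP, the Gi class lowers it and opens GIRK potassium channels, and the Gq class activates phospholipase C beta. Nicotinic receptors and the serotonin receptor of the Htr3 genes are instead ion channels built of several subunits.

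Libraries held 30348556 to 35126207 counts, and the receptor genes together took 0.0222% to 0.0259% of them. Fmr1 had 4113, 3710 and 3656 counts in WT and 1761, 1879 and 1972 in Fmr1-KO, a log2 fold-change of -0.98 (SE 0.04, adjusted P = 2.25e-13). All 3 Fmr1-KO libraries therefore lay below all 3 WT libraries, but 50.6% of the WT level remained, and a count per gene does not separate a disrupted exon from the rest. The cultures were not neurons alone. Gfap, an astrocyte gene, reached a mean of 2649 CPM (counts scaled by library size) in WT, and none of the 8 astrocyte, 8 microglia, 8 oligodendrocyte lineage or 6 choroid plexus markers was at 0 in all libraries. All 10 pan-neuronal markers were lower in Fmr1-KO (median log2 fold-change -0.64, summed level 3773 to 3874 CPM in WT and 2967 to 3130 CPM in Fmr1-KO), while all 6 markers of proliferating cells were higher (median 0.71, 331.1 to 373.9 CPM and 614.8 to 685.0 CPM). All 8 oligodendrocyte lineage markers were lower (median -0.72, 1884 to 2046 CPM in WT and 1075 to 1159 CPM in Fmr1-KO), as were 5 of 6 Cajal-Retzius markers (-1.21, 194.5 to 222.8 CPM and 74.9 to 94.99 CPM) and 7 of 8 microglia markers (-0.51, 236.9 to 252.5 CPM and 148.4 to 165.2 CPM). Of 9 excitatory neuron markers, 4 were lower and 5 higher (0.09). Of 8 astrocyte markers, 5 were lower and 1 higher (-0.11, 5427 to 5541 CPM and 4745 to 5156 CPM). Of 8 progenitor markers, 0 were lower and 4 higher (0.21), and of 12 interneuron markers 7 and 4 (-0.19). Of 7 fibroblast markers, 5 were lower and 0 higher (-0.28), and of 8 tested endothelial and mural markers 3 and 3 (-0.15). The summed endothelial and mural level was nonetheless higher, at 253.0 to 275.7 CPM in WT and 401.0 to 420.3 CPM in Fmr1-KO. So was the summed interneuron level (892.7 to 922.4 CPM and 929.5 to 1002 CPM). Among all tested genes, 21.9% were lower and 20.7% higher. These marker levels moved with genotype beside every receptor result given here, and their part in those results was not tested. In such bulk samples, fewer cells of a type and less RNA per cell cannot be told apart.

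Receptor RNAs moved in both directions in Fmr1-KO cultures, more often downwards. Genes were compared one by one with edgeR, and a gene was called when its Benjamini-Hochberg adjusted P over all 16976 tested genes was under 0.05. Of the 49 receptor genes, 34 passed the filter on low counts, 0 of them through the libraries of 1 genotype alone. Of these, 14 were called lower (41.2%) and 6 were called higher (17.6%). Among all tested genes, 21.9% were called lower and 20.7% higher. The share of receptor genes called lower was thus above that background, and the share called higher was close to it. Among genes with mean counts in the range of the tested receptors the background was 18.6% lower and 20.0% higher. By at least 2-fold, 5 receptor genes were lower (background 2.06%) and 0 were higher (background 0.648%). The median log2 fold-change of the 34 tested genes was -0.19, against 0.01 for all tested genes. In 17 receptor genes every Fmr1-KO library lay below every WT library (50.0%, background 26.3%), and in 8 every one lay above (23.5%, background 25.4%).

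**Figure D1:**
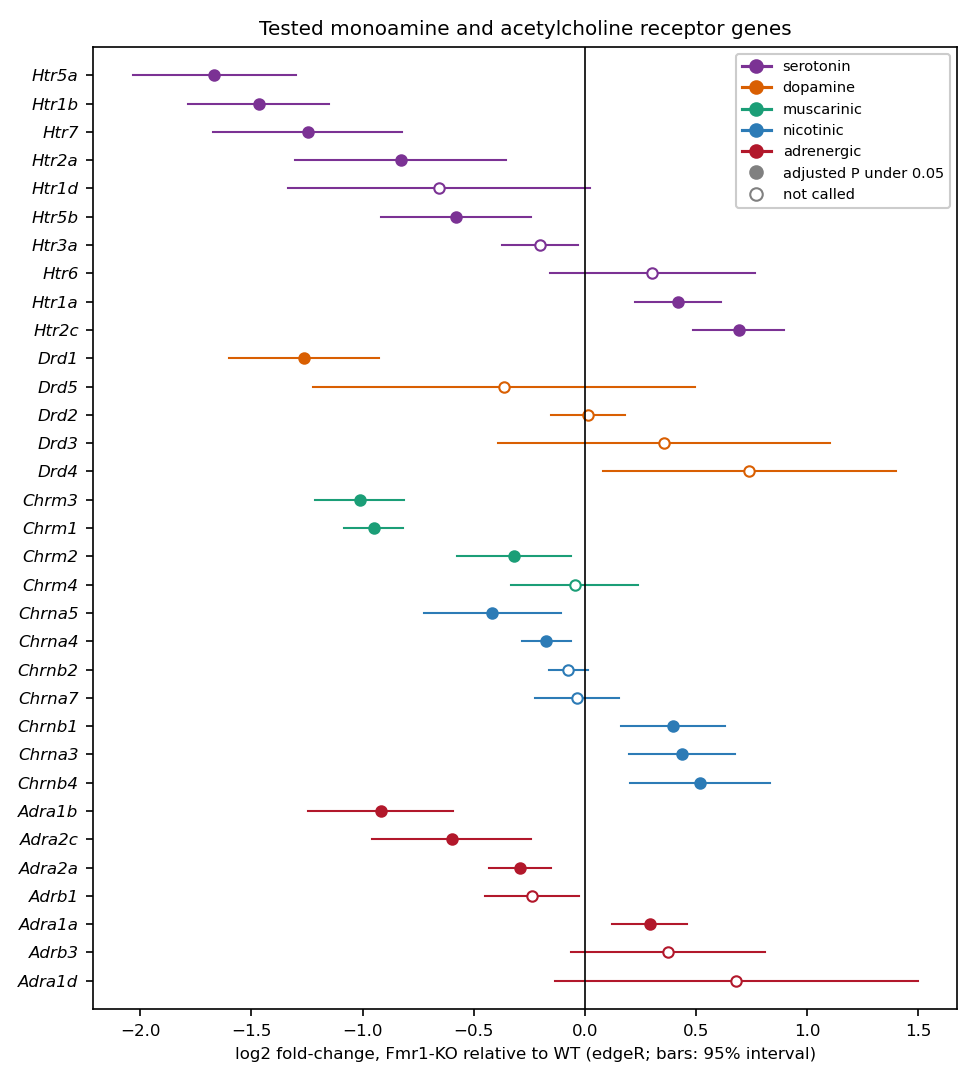
Log2 fold-change in Fmr1-KO relative to WT (x axis) of 33 tested receptor genes (y axis), grouped by family. Points are edgeR estimates with 95% intervals, filled where the adjusted P was under 0.05; the 5 genes with the largest decreases are Htr5a, Htr1b, Drd1, Htr7 and Chrm3, and the highest called estimate is that of Htr2c at 0.69.

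Among serotonin receptors, 5 of 10 tested genes fell, 2 rose and 3 were not called (median log2 fold-change -0.62). The shares were 50% lower and 20% higher, against 21.9% and 20.7% of all tested genes, so the share higher was near the background. Htr5a, a Gi-coupled receptor, had the largest decrease of all receptor genes. It had 96, 86 and 101 counts in WT and 34, 23 and 29 in Fmr1-KO, a log2 fold-change of -1.67 (SE 0.18, adjusted P = 1.13e-07). Htr1b, a Gi-coupled receptor known as an autoreceptor on axon terminals, had 169, 174 and 135 counts in WT and 68, 49 and 50 in Fmr1-KO (-1.47, SE 0.15, adjusted P = 8.77e-08). Neither gene showed any overlap between genotypes, and the Fmr1-KO levels were 31.5% and 36.2% of WT. Htr7, which couples to Gs, had 66, 53 and 63 counts in WT and 19, 24 and 31 in Fmr1-KO (-1.25, SE 0.20, adjusted P = 3.95e-05). These counts were low but again fully separated by genotype.

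The sequences upstream of the 2 genes with the largest decreases are shown because transcription of these RNAs may be controlled there. The libraries measured RNA and not promoter activity. Each is the 250 bases before the RefSeq start (GRCm38.p6), read 5′ to 3′ on the gene's strand. The RefSeq start lies 202 bases before the GENCODE M21 start for Htr5a and 4 bases before it for Htr1b. The Htr5a window is thus further from the other annotated start, and the start used in these cells was not tested. Motifs were searched on both strands, and none of them contains another: TGACG is the core of the site bound by CREB, GGGCGG is the GC box, TATAAA is the TATA box and CAGCTG is an E-box. Capitals mark CAGCTG, the only one of these found. Htr5a lies at chr5:27841697-27841946 on the plus strand and Htr1b at chr9:81633833-81634082 on the minus strand.
Htr5a: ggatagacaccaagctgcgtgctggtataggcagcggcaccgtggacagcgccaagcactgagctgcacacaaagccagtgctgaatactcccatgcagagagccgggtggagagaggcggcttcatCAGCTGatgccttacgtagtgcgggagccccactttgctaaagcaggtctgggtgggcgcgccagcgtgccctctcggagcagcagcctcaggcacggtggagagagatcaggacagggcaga
Htr1b: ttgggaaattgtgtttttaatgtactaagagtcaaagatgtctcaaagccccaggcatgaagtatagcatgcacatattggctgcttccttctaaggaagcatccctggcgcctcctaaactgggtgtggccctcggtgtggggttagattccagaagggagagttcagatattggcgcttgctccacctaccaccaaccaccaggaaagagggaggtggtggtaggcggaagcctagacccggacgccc
Htr5a had 1 CAGCTG match and Htr1b had 0 matches to any of the motifs. Of 32851 promoter windows of mouse genes, 13.0% held the E-box, 17.8% the CREB core, 32.7% the GC box and 12.4% the TATA box, so a match is a description of the letters only.

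Htr2a and Htr2c, both coupled to Gq, moved in opposite directions. Htr2a, known as a target of psychedelic drugs, had 49, 55 and 34 counts in WT and 26, 25 and 24 in Fmr1-KO (-0.83, SE 0.23, adjusted P = 0.00545). Htr2c had 315, 266 and 272 counts in WT and 512, 349 and 474 in Fmr1-KO (0.69, SE 0.10, adjusted P = 6.16e-06), the largest called increase of the receptor genes. The 3 Fmr1-KO libraries were all above WT but differed among themselves more than the WT libraries did (13.6 ± 2.17 CPM against 8.42 ± 0.56 CPM, SD, n = 3 each). Htr2c is known to be abundant in the choroid plexus, and 5 of 6 choroid plexus markers were also higher in Fmr1-KO (summed level 1042 to 1102 CPM in WT and 1443 to 1744 CPM in Fmr1-KO). That share was 83.3%, against 20.7% of all tested genes called higher. Ttr, the transthyretin gene, rose by a log2 fold-change of 0.63. Htr2c also lies on the X chromosome (X, 146962513 to 147197277, GRCm38), and the X-linked Xist was higher in Fmr1-KO (306 and 916 CPM, log2 fold-change 1.58). Of 4 Y-linked genes, 3 were called lower, and the largest decrease was -0.47 for Eif2s3y. The part of choroid plexus cells and of the sex of the pups in the Htr2c result was not tested. These sex-linked differences stood beside every other receptor result too, and their part there was not tested either.

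Htr1a, the Gi-coupled receptor that acts as an autoreceptor on serotonin neurons and postsynaptically in cortex, rose, with 206, 209 and 224 counts in WT and 279, 234 and 316 in Fmr1-KO (0.42, SE 0.09, adjusted P = 8.77e-04). Htr5b, a close relative of Htr5a, fell, with 86, 77 and 89 counts in WT and 43, 56 and 64 in Fmr1-KO (-0.58, SE 0.16, adjusted P = 0.00604). In both genes the genotypes did not overlap. Htr3a, the ion channel subunit found on a class of cortical interneurons, had 354, 303 and 338 counts in WT and 295, 245 and 298 in Fmr1-KO, which just missed the threshold (-0.20, SE 0.08, adjusted P = 0.0546). Htr6, coupled to Gs, had 28, 24 and 25 counts in WT and 31, 28 and 33 in Fmr1-KO (0.30, adjusted P = 0.290), and Htr1d, coupled to Gi, had 18, 25 and 19 counts in WT and 16, 6 and 16 in Fmr1-KO (-0.66, adjusted P = 0.115). The 95% intervals of Htr6 (-0.16 to 0.76) and Htr1d (-1.34 to 0.02) leave room for changes as large as those of called genes.

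**Figure D2:**
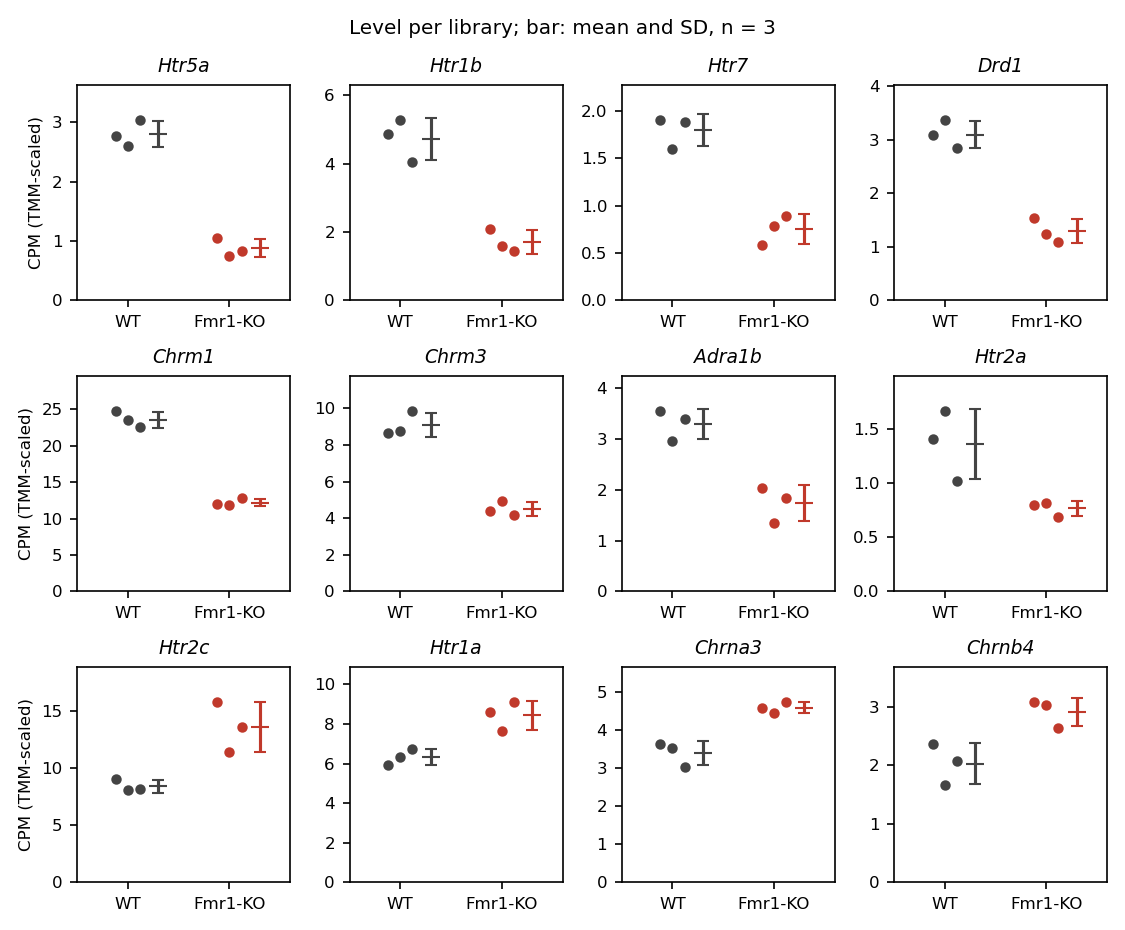
Level in CPM, scaled by edgeR's TMM factors (y axis, starting at 0), in each WT and Fmr1-KO library (x axis) for 12 called receptor genes, which were picked for display after their values were seen. Points are libraries and bars are the mean and SD (n = 3); in each of the 12 genes the 3 Fmr1-KO points lie outside the range of the 3 WT points.

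Of the 5 dopamine receptors, only Drd1 was called, and Drd2 was not. The share called lower, 20%, was near the 21.9% of all tested genes. Drd1, the Gs-coupled receptor of the direct-pathway striatal neurons and of some cortical cells, had 107, 111 and 95 counts in WT and 50, 38 and 38 in Fmr1-KO (-1.26, SE 0.16, adjusted P = 1.66e-06). Drd2, the Gi-coupled receptor, had 451, 377 and 421 counts in WT and 445, 343 and 433 in Fmr1-KO (0.01, 95% interval -0.15 to 0.18, adjusted P = 0.910). The ratio of Drd1 to Drd2 per kilobase of exon, chosen after these values were seen, was 0.177 ± 0.026 in WT and 0.073 ± 0.010 in Fmr1-KO (SD, n = 3). Of 9 markers of striatal projection neurons, 7 were lower and 1 was higher in Fmr1-KO (summed level 399.7 to 407.8 CPM in WT and 313.4 to 330.1 CPM in Fmr1-KO). These are 77.8% and 11.1%, against 21.9% and 20.7% of all tested genes. The log2 fold-changes of the 9 markers ran from -2.40 to 0.56. Among them were Tac1, a direct-pathway neuropeptide gene (-2.40), Ppp1r1b, the DARPP-32 gene (-0.91), and Penk, an indirect-pathway neuropeptide gene (-0.70). The part of striatal cells in the Drd1 result was not tested. Drd3, Drd4 and Drd5 had 5 to 21 counts in every library, and none was called. Drd4, a Gi-coupled receptor, had 9, 11 and 12 counts in WT and 14, 17 and 21 in Fmr1-KO (0.74, adjusted P = 0.0657).

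Among muscarinic receptors, 3 of 4 tested genes fell (75%, background 21.9%) and 0 rose (background 20.7%), with a median log2 fold-change of -0.63. Chrm1, the Gq-coupled receptor of cortical pyramidal cells, had 858, 776 and 751 counts in WT and 389, 362 and 445 in Fmr1-KO (-0.95, SE 0.06, adjusted P = 1.25e-10). Chrm3, also coupled to Gq, had 301, 290 and 328 counts in WT and 143, 151 and 146 in Fmr1-KO (-1.01, SE 0.10, adjusted P = 2.70e-08). They stood at 51.8% and 49.5% of WT, with no overlap between genotypes. Chrm2, a Gi-coupled receptor, had 127, 147 and 127 counts in WT and 107, 102 and 102 in Fmr1-KO (-0.32, SE 0.12, adjusted P = 0.0434). That call was lost in 8 of the 13 alternative analyses that set no minimum fold change, among them DESeq2 (adjusted P = 0.153) and the fits without WT replicate 2 (adjusted P = 0.184), WT replicate 3 (0.0566) or Fmr1-KO replicates 1 (0.0623), 2 (0.0520) or 3 (0.155). Chrm4, the other Gi-coupled member tested, had 113, 97 and 86 counts in WT and 93, 94 and 90 in Fmr1-KO (-0.05, 95% interval -0.33 to 0.24, adjusted P = 0.817), and the genotypes overlapped. The summed muscarinic level was 39.7 ± 0.77 CPM in WT and 22.9 ± 0.38 CPM in Fmr1-KO (SD, n = 3), which is 57.6% of WT.

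**Figure D3:**
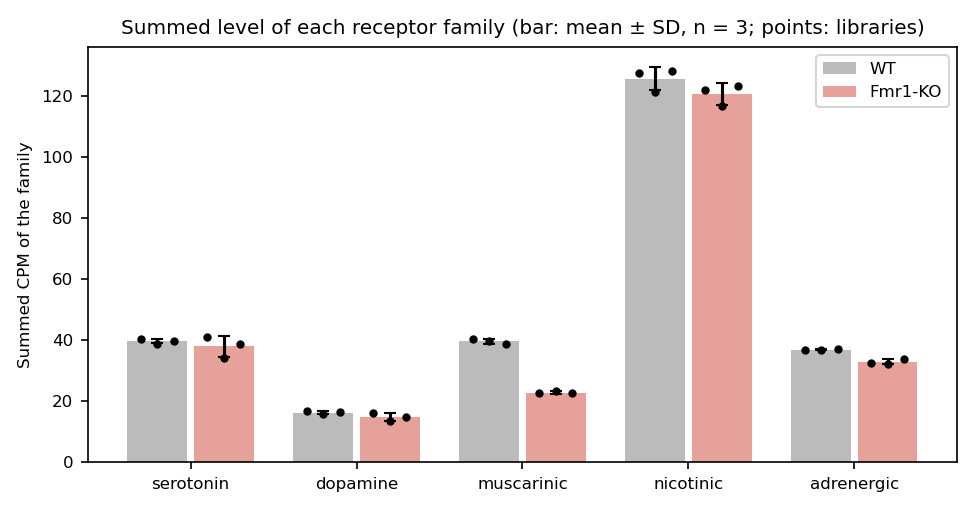
Summed level of each receptor family in CPM (y axis) in WT and Fmr1-KO libraries (x axis: family). Bars are means with SD (n = 3) and points are libraries. The muscarinic sum falls from 39.7 to 22.9 CPM and the adrenergic sum from 36.9 to 32.9 CPM, both without overlap. The serotonin sum overlaps between genotypes.

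The other sums moved less. The nicotinic sum was 125.7 ± 3.87 CPM in WT and 120.7 ± 3.50 CPM in Fmr1-KO, the serotonin sum 39.7 ± 0.76 and 38.0 ± 3.45, the dopamine sum 16.3 ± 0.53 and 14.9 ± 1.30, and the adrenergic sum 36.9 ± 0.22 and 32.9 ± 0.85 (SD, n = 3). The serotonin sum thus hid changes of single genes in both directions. Of these other sums, only the adrenergic sum did not overlap between genotypes. Nicotinic genes made up 48.7% of the summed receptor CPM in WT and 52.6% in Fmr1-KO. These sums were not divided by exon length, so longer genes weigh more in such shares. By G protein class, 4 of 7 tested Gq-coupled genes fell and 2 rose (median log2 fold-change -0.83), 6 of 12 Gi-coupled genes fell and 1 rose (-0.31), 2 of 7 Gs-coupled genes fell and 0 rose (-0.24), and 2 of 8 ion channel subunits fell and 3 rose (-0.05). The shares called lower were 57.1%, 50.0%, 28.6% and 25%, against 21.9% of all tested genes, so those of the Gs-coupled genes and the ion channel subunits were near the background.

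Nicotinic subunits changed by smaller steps. Of 7 tested genes, 2 fell (28.6%, background 21.9%), 3 rose (42.9%, background 20.7%) and 2 were not called. Chrna4 and Chrnb2, the subunits of the main high-affinity receptor of the brain, were the most abundant receptor genes per kilobase of exon. Chrna4 had 1302, 1193 and 1207 counts in WT and 1140, 923 and 1116 in Fmr1-KO (-0.17, SE 0.05, adjusted P = 0.0113), and its call was lost without WT replicate 1 (adjusted P = 0.0527) or Fmr1-KO replicate 2 (adjusted P = 0.0676). Chrnb2 had 2383, 2178 and 2417 counts in WT and 2092, 1953 and 2374 in Fmr1-KO (-0.07, 95% interval -0.16 to 0.01, adjusted P = 0.161). Chrna7, which forms a receptor of its own, had 278, 237 and 275 counts in WT and 252, 211 and 284 in Fmr1-KO (-0.03, 95% interval -0.23 to 0.16, adjusted P = 0.793). For both, the genotypes overlapped.

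Chrna5, Chrna3 and Chrnb4 are neighbours on chromosome 9 (GRCm38), and did not move together. Chrna5, an accessory subunit, lies at 54980880 to 55007779 on the plus strand, and Chrna3 (55010111 to 55026562) and Chrnb4 (55028154 to 55048779) lie on the minus strand, 2332 bases from Chrna5 to Chrna3 and 1592 from Chrna3 to Chrnb4. Chrna5 had 91, 85 and 81 counts in WT and 61, 66 and 59 in Fmr1-KO (-0.42, SE 0.15, adjusted P = 0.0280), a call lost in DESeq2 (adjusted P = 0.133) and in 4 fits that left out 1 library, without WT replicate 1 (0.0820), WT replicate 2 (0.0582), Fmr1-KO replicate 1 (0.0664) or Fmr1-KO replicate 3 (0.123). Chrna3, which pairs with Chrnb4 in autonomic ganglia, had 126, 116 and 101 counts in WT and 149, 136 and 164 in Fmr1-KO (0.44, SE 0.11, adjusted P = 0.00394). Chrnb4 had 82, 55 and 69 counts in WT and 100, 93 and 92 in Fmr1-KO (0.52, SE 0.15, adjusted P = 0.00868), a call lost without WT replicate 2 (adjusted P = 0.0524). The ratio of Chrna3 to Chrna5 per kilobase of exon was 0.791 ± 0.044 in WT and 1.44 ± 0.21 in Fmr1-KO, and that of Chrnb4 to Chrna5 was 0.672 ± 0.113 and 1.29 ± 0.10 (SD, n = 3, pairs chosen after their values were seen). Chrnb1, the beta subunit of the muscle receptor, had 154, 134 and 120 counts in WT and 162, 176 and 181 in Fmr1-KO (0.40, SE 0.11, adjusted P = 0.00667). The other muscle subunits, Chrna1, Chrnd, Chrne and Chrng, had 0 to 6 counts in every library and were not tested.

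Among adrenergic receptors, 3 of 8 tested genes fell (37.5%, background 21.9%), 1 rose (12.5%, background 20.7%) and 4 were not called. The 2 Gq-coupled alpha-1 genes with the most counts moved in opposite directions: Adra1b had 123, 98 and 113 counts in WT and 66, 41 and 64 in Fmr1-KO (-0.92, SE 0.16, adjusted P = 6.01e-05). Adra1a had 268, 267 and 248 counts in WT and 297, 300 and 330 in Fmr1-KO (0.29, SE 0.08, adjusted P = 0.00579). Neither gene overlapped between genotypes. Of the Gi-coupled alpha-2 genes, Adra2a, an autoreceptor of noradrenaline neurons that is also postsynaptic in cortex, had 524, 510 and 535 counts in WT and 409, 369 and 463 in Fmr1-KO (-0.29, SE 0.07, adjusted P = 0.00131). Adra2c had 113, 73 and 85 counts in WT and 53, 48 and 72 in Fmr1-KO (-0.60, SE 0.17, adjusted P = 0.00728), a call lost without WT replicate 1 (adjusted P = 0.0742). Both tested alpha-2 genes were thus called lower, Adra2c from lower counts. Adra2b had 2 to 7 counts in every library and was not tested. The Gs-coupled Adrb1 had 182, 185 and 201 counts in WT and 162, 145 and 159 in Fmr1-KO and missed the threshold (-0.24, SE 0.10, adjusted P = 0.0652). Adrb3, coupled to Gs, had 36, 50 and 31 counts in WT and 41, 52 and 54 in Fmr1-KO (0.38, adjusted P = 0.160), and Adra1d, coupled to Gq, had 10, 4 and 11 counts in WT and 17, 10 and 12 in Fmr1-KO (0.68, adjusted P = 0.173). In both the genotypes overlapped.

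Compared per kilobase of exon, the order of receptor levels differed between genotypes. In WT, Chrnb2 (8.23 ± 0.39 CPM per kilobase), Chrna4 (7.28 ± 0.15), Drd2 (4.84 ± 0.32), Htr3a (4.72 ± 0.28) and Chrm1 (3.63 ± 0.17) led. In Fmr1-KO the first 4 kept that order, with Chrnb2 at 7.81 ± 0.29, Chrna4 at 6.46 ± 0.49, Drd2 at 4.89 ± 0.49 and Htr3a at 4.10 ± 0.26. Drd2 and Htr3a lie within their SDs of each other in WT, so their order there is not resolved. Chrm1 moved from rank 5 to rank 9 (1.88 ± 0.08 CPM per kilobase in Fmr1-KO), Chrm3 from 11 to 17, Htr1b from 14 to 24 and Drd1 from 18 to 25. Htr2c moved from 16 to 11 and Chrnb1 from 10 to 6. Some exact ranks are not resolved either. In Fmr1-KO, Chrm1 lay within its SD of Htr1a (1.88 ± 0.16), and Drd1 (0.36 ± 0.06) within its SD of Htr1b (0.36 ± 0.07). In WT, Chrnb1 (1.59 ± 0.17) lay within its SD of Adrb1 (1.66 ± 0.12). The lowest members were out of reach at this depth: 15 genes had means of 0.167 to 6.5 counts and at most 12 counts in a library. They were Htr1f, Htr2b, Htr3b, Htr4, Chrm5, Chrna1, Chrna2, Chrna6, Chrna9, Chrna10, Chrnb3, Chrnd, Chrne, Chrng and Adra2b. Htr4, the Gs-coupled serotonin receptor, had 11, 6 and 12 counts in WT and 4, 3 and 3 in Fmr1-KO, and did not pass the filter. It was called lower where it was tested with no filter (adjusted P = 0.0365), without WT replicate 2 (0.0102) or without Fmr1-KO replicate 1 (0.0373), and not called without Fmr1-KO replicate 2 (0.0543) or 3 (0.0727).

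The genes that make, carry and break down the transmitters, and those that pass on the receptor signal, were examined next. Of 84 such genes 74 were tested, and 38 of them fell (51.4%, background 21.9%) and 11 rose (14.9%, background 20.7%), with a median log2 fold-change of -0.21. For acetylcholine, 3 of 4 tested genes fell (75%, background 21.9%). Ache, the acetylcholinesterase gene, had 333, 329 and 342 counts in WT and 130, 129 and 142 in Fmr1-KO (-1.28, adjusted P = 2.63e-10). Slc5a7, the choline transporter, fell by 0.50 and Bche, butyrylcholinesterase, by 0.42 on the log2 scale, whereas Chat and Slc18a3, the defining genes of cholinergic neurons, had 0 to 10 counts and were not tested. For serotonin, 2 of 7 tested genes rose and 2 fell (28.6% each, background 20.7% higher and 21.9% lower). Slc18a2, the vesicular monoamine transporter, had 76, 68 and 72 counts in WT and 192, 164 and 240 in Fmr1-KO (1.51, adjusted P = 3.70e-09). Tph1, a serotonin-synthesizing hydroxylase, had 6, 5 and 9 counts in WT and 27, 17 and 22 in Fmr1-KO (1.75, adjusted P = 3.04e-04). Ddc, the aromatic amino acid decarboxylase, fell by 0.72 and Maoa, monoamine oxidase A, by 0.20 on the log2 scale.

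Downstream of the receptors, all 4 GIRK channel genes, the potassium channels opened by Gi-coupled receptors, fell (median log2 fold-change -1.03). Kcnj3 had 956, 1014 and 933 counts in WT and 426, 465 and 566 in Fmr1-KO (-0.95, adjusted P = 5.60e-10), and Kcnj9 had 119, 137 and 139 counts in WT and 65, 48 and 61 in Fmr1-KO (-1.14, adjusted P = 1.47e-06). Kcnj6 and Kcnj5 stood at -0.96 and -1.10. Adenylyl cyclases, which make cyclic AMP, fell in 6 of 8 tested genes and rose in 1, with Adcy1 at -1.28, Adcy8 at -0.79, Adcy5 at -0.70 and Adcy6 at 0.11. Of 11 G protein alpha subunits, 8 fell and 0 rose, led by Gna15 (-1.16), Gnal (-0.70) and Gna14 (-0.59). Of 4 phospholipase C beta genes, Plcb2 (-0.98) and Plcb1 (-0.59) fell. Of 13 RGS genes, which shorten G protein signals, 6 fell and 5 rose, with Rgs4 at -1.26, Rgs12 at 0.34 and Rgs16 at 0.32. Of 7 receptor kinases and arrestins, Grk5 (-0.39) and Grk2 (-0.26) fell, a share of 28.6% that was near the 21.9% of all tested genes. Of 8 nicotinic chaperones and prototoxins, 4 fell, led by Lypd6b (-0.98), and 1 rose, Lynx1 (0.38). Of 5 genes for clustering of nicotinic receptors, Lrp4 (0.37) and Agrn (0.16) rose. Among all tested genes 21.9% were called lower and 20.7% higher. Called lower were 100% of GIRK channels, 75% of adenylyl cyclases, 72.7% of G protein alpha subunits and 50% of phospholipase C beta genes. So were 46.2% of RGS genes and 50% of chaperones and prototoxins. Called higher were 38.5% of RGS genes, 40% of clustering genes and 12.5% each of adenylyl cyclases and of chaperones and prototoxins.

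**Figure D4:**
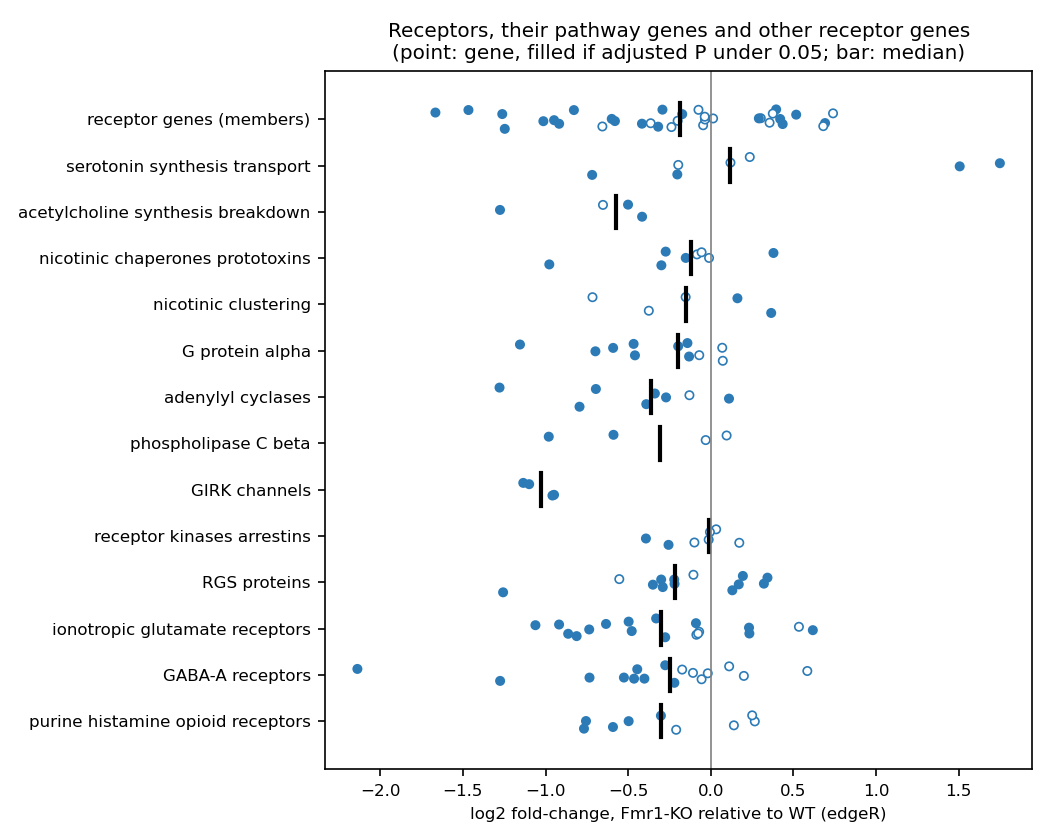
Log2 fold-change in Fmr1-KO relative to WT (x axis) of the tested receptor genes, of 10 lists of pathway genes and of 3 lists of other neurotransmitter receptors (y axis). Points are genes, filled where the adjusted P was under 0.05, and bars are medians; all 4 GIRK channels lie near -1.03, and the receptor genes spread from -1.67 to 0.74.

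Receptors for other transmitters also fell more often than they rose. Of 18 tested ionotropic glutamate receptor genes 11 fell and 3 rose (median -0.30), of 16 GABA-A receptor genes 9 fell and 0 rose (-0.25), and of 9 purine, histamine and opioid receptor genes 5 fell and 0 rose (-0.30), where the background over all tested genes was 21.9% lower and 20.7% higher. Grin1, the obligatory NMDA receptor subunit, stood at -0.92 and Gabra5, a GABA-A alpha subunit, at -1.28. They are examples only: tested genes ran from -1.06 to 0.62 in the glutamate list and from -2.14 to 0.58 in the GABA-A list. The share of monoamine and acetylcholine receptor genes called lower, 41.2%, lay below those of these 3 lists (61.1%, 56.2% and 55.6%); the differences were not tested.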

How the data were processed

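Poly(A) RNA of 3 WT and 3 Fmr1-KO samples was sequenced from stranded single-end libraries. The authors deposited raw counts per gene name, without normalization. Their methods name FastP for trimming, STAR for alignment to genome GRCm38.p6 and reverse-stranded featureCounts over exons. The submitters' processing notes give STAR 2.7.6a and Subread 2.0.1, whereas the methods name an earlier Subread version. Counting by strand keeps opposite-strand neighbours apart, and counts by name do not separate isoforms. Columns were matched to samples by name, and 0 rows lacked a gene name.

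Counts were tested with edgeR 4.0.16 in R 4.3.3 (filterByExpr, TMM factors, quasi-likelihood F test, Benjamini-Hochberg adjustment over 16976 genes, threshold 0.05); the SE was the log2 fold-change divided by the square root of F. CPM used TMM-scaled library sizes. Exon lengths, coordinates and chromosome positions came from GENCODE M21 on GRCm38, whereas the study's methods name later GENCODE releases. Promoters came from RefSeq, in which 37 of 49 genes had an entry. On simulated counts, 90.5% of 200 genes changed by 1 on the log2 scale were recovered and 0.0723% of 16605 unchanged genes were called. The simulated spread was fitted to these data, and the changed genes had means of 10 or more counts. These figures check the fit and do not give error rates for the receptor results. Counts of same-genotype libraries spread beyond sampling noise (chi-square per degree of freedom 2.92 in WT and 3.17 in Fmr1-KO). Receptor genes were named, with values per library where the mean was 10 or more counts; of each pathway list, up to 3 called genes per direction with the largest changes were named. The values of 1 tested receptor gene and of 1 pathway list are not reported here, but stay in the counts. The receptor genes and all lists were chosen with earlier results of these data known. Alternatives were other scalings, filters, DESeq2 1.42.0, a replicate block, a minimum fold of 1.2 and leaving out each library; those for families and pathway lists were chosen after seeing the data.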

Additional observations from a re-analysis of the deposited data

How the results depend on the processing

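Of the 20 called receptor genes, 15 kept their call in the 13 alternatives other than a minimum fold change, 10 lower and 5 higher; Chrm2, Chrna5, Chrna4, Chrnb4 and Adra2c lost it in at least 1. Between 11 and 14 genes were called lower without 1 library and 6 were called higher each time; DESeq2 called 12 lower and 6 higher, and 15 and 6 were called with no filter. Testing against a minimum fold change of 1.2 left 8 lower (Htr5a, Htr1b, Drd1, Htr7, Chrm3, Chrm1, Adra1b and Htr2a) and 1 higher (Htr2c), so that Htr1a, Htr5b, Adra2a, Adra1a, Chrna3 and Chrnb1 lost the call there too. The median log2 fold-change was -0.24 under a stricter filter and -0.23 to -0.16 without 1 library. Htr3a passed the threshold without WT replicate 2 (adjusted P = 0.0283) or Fmr1-KO replicate 1 (0.0433), and Adrb3 without WT replicate 2 (0.0363). Directions reversed for 3 uncalled genes named here: the range without 1 library was -0.129 to 0.0389 for Chrm4 (positive on omitting WT 1 or Fmr1-KO 3), -0.0592 to 0.0810 for Drd2 (negative on omitting WT 2 or Fmr1-KO 1) and -0.0923 to 0.0280 for Chrna7 (positive on omitting WT 3 or Fmr1-KO 2). The cause was not tested. Same-numbered replicates did not deviate together (correlations -0.050, 0.047 and 0.00074), so numbers were not taken as pairs; with the replicate block 14 genes were called lower and 6 higher, and 37 and 12 pathway genes. Pathway genes called lower numbered 35 to 38 and higher 10 to 14 over the 13 alternatives; the minimum fold change was not run for them. The 3 libraries per genotype and counts under about 20 limit what can be seen for the lowest receptors.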
